A study of Mus musculus with 10 samples.

Results

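The BMP and TGF-beta signalling genes examined here are 42 listed ligands, receptors, antagonists, Smads and Id target genes. They were matched by symbol to mouse Ensembl identifiers, and all 42 were found among the 49662 genes of the table. All 42 reached 10 estimated fragments in some group, the minimum for a comparison, and 37 of them reached 100. RNA-seq was performed on whole hearts taken at E12.5, in 3 groups. Wild-hypoxia hearts (3 samples) came from wild-type embryos whose mothers were housed in 14% oxygen from mid-gestation until the hearts were collected. Mutant-normoxia hearts (3 samples) came from embryos heterozygous for an Nkx2-5 knock-in point mutation, kept at normal oxygen. Wild-normoxia hearts (4 samples) came from wild-type embryos at normal oxygen. The mothers of all 3 groups were wild-type mice of the 129/Sv background mated with heterozygous Nkx2-5 mutant males, so that wild-type and mutant embryos could share a litter, and a mutant embryo carried the knock-in allele in every cell. Each sample held pooled RNA from 2 to 3 hearts. Hypoxia-exposed mutant embryos are not analysed here.

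The comparisons address which transcripts of these pathways differ after gestational hypoxia, which differ with the Nkx2-5 mutation, and where both conditions differ from each other. BMP and TGF-beta ligands are secreted dimers that bring together type I and type II receptor kinases. The type I receptor phosphorylates receptor Smads (Smad1, Smad5 and Smad9 on the BMP branch, Smad2 and Smad3 on the TGF-beta and activin branch), which enter the nucleus with Smad4 and regulate targets such as the Id genes. Antagonists bind the ligands outside the cell, and Smad6 and Smad7 block the receptors from within. In the embryonic heart these pathways are known for cardiac specification, growth of the trabeculated myocardium, and the endothelial-to-mesenchymal transition that forms the endocardial cushions.

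The table held 1 estimated count per gene and group and a variance from the authors' model, but no value for a single sample. A difference could therefore not be set against values of single samples, and no test was run. Differences are given as log2 fold changes after adding a pseudocount of 1, which understates the change of low genes. The standard error beside each is a model standard error, computed from the deposited variance divided by the number of samples. Estimated fragments summed to 19.58 M in wild-hypoxia, 18.68 M in mutant-normoxia and 18.54 M in wild-normoxia hearts. Nkx2-5 had 4131 fragments in wild-hypoxia and 4106 in mutant-normoxia hearts, against 3689 in wild-normoxia hearts, a count that sums over both alleles. All 8 cardiomyocyte markers were abundant in every group, none under 20471 fragments, and all 8 endothelial and endocardial markers, 8 cushion mesenchyme markers and 8 epicardial markers were present. Epicardial markers summed to 7806 fragments in wild-hypoxia, 8425 in mutant-normoxia and 6926 in wild-normoxia hearts. Over wild-normoxia 7 of 8 were above 0 in wild-hypoxia hearts (median log2 0.16) and 8 of 8 in mutant-normoxia hearts (median 0.24, 3 of them over 2 model standard errors), led by Aldh1a2 at 0.62 in mutant-normoxia hearts. Markers of other tissues differed between the groups as well. Red cell markers summed to 31399 fragments in wild-hypoxia, 26894 in mutant-normoxia and 11510 in wild-normoxia hearts, and liver markers to 1537, 1736 and 4679 in the same order of groups. In bulk hearts, fewer cells of a type and less RNA per cell cannot be told apart.

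The promoters of 4 members are shown first, because Id4, Grem1 and Gdf10 were the members over 1.5-fold in some comparison and Id2 had the highest level per length. Each is the 250 bases before the RefSeq start (table of build GRCm38.p6, which held 28 of the 42 members), written 5′ to 3′ on the strand of the gene. Coordinates are exact matches in NCBIM37: chr13:48356235-48356484 (plus strand) for Id4, chr2:113598806-113599055 (minus strand) for Grem1, chr12:25780958-25781207 (minus strand) for Id2 and chr14:34736523-34736772 (plus strand) for Gdf10. Capitals mark GGCGCC, the GC-rich motif of BMP-type Smads, which reads the same on both strands.
Id4: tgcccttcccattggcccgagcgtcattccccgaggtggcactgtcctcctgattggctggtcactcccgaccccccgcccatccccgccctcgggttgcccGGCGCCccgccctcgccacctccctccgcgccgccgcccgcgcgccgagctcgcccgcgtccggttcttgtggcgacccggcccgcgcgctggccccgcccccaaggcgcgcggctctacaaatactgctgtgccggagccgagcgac
Grem1: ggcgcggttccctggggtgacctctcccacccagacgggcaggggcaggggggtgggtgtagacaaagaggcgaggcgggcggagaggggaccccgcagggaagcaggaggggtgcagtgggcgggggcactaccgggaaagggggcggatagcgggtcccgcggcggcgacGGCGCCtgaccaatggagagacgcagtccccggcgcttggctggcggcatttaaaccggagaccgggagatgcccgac
Id2: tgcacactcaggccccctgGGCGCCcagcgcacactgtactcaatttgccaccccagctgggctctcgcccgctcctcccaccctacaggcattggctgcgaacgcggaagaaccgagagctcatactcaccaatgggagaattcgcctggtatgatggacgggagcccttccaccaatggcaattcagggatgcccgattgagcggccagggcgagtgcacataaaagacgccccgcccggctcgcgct
Gdf10: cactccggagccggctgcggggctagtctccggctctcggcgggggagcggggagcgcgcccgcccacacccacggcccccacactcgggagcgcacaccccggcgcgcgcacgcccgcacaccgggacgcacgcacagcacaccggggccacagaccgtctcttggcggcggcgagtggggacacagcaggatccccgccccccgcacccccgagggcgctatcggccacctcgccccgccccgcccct
GGCGCC was present once in Id4, beginning 148 bases before the RefSeq start, once in Grem1 at 78 bases and once in Id2 at 231 bases. The NCBIM37 annotation used below starts Id4 further downstream, at chr13:48356796, so the Id4 window does not adjoin that start. Gdf10 held no GGCGCC. All 4 windows were rich in G and C, at 75.6% in Id4, 72.0% in Grem1, 62.8% in Id2 and 78.8% in Gdf10. The 28 members had 33 promoters in the table, since Bmpr1b, Smad5 and Tgfbr1 had more than 1. GGCGCC occurred in 9 of these 33 promoters (27.3%), 1 each of Bmpr1a, Bmpr2, Tgfbr1, Smad5, Smad9, Chrd, Grem1, Id2 and Id4, against 9.59% of all 32851 promoters, which were not matched for base composition. The letters GTCT, the Smad half-site, occurred in 28 of the 33 (84.8%) against 82.9% of all promoters, and its palindrome GTCTAGAC, which contains GTCT, in 0 against 0.167%. The HIF-type letters ACGTG occurred in 5 of the 33 (15.2%) against 16.6% of all promoters, and CACGTG, which contains ACGTG, in 4 (12.1%) against 6.02%, all on both strands. These matches describe the letters in the window and are not binding sites.

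No member was over 2-fold in any comparison, where 2.99% of all 17204 compared genes were over 2-fold between wild-hypoxia and wild-normoxia hearts, 2.08% between mutant-normoxia and wild-normoxia hearts and 1.97% between wild-hypoxia and mutant-normoxia hearts. At a lower limit of 1.5-fold, 1 of 42 members (2.38%) was past it in wild-hypoxia over wild-normoxia hearts, Gdf10, against 7.86% of all compared genes. In mutant-normoxia over wild-normoxia hearts 2 members (4.76%), Grem1 and Id4, were past it, against 5.69% of all compared genes. Directly between wild-hypoxia and mutant-normoxia hearts 1 member (2.38%) was past it, Id4, lower in wild-hypoxia, against 5.39% of all compared genes. These shares were below the background or near it. At matched depth, 0 of the 37 members that reached 100 fragments were over 2-fold, beside 0.990%, 0.827% and 0.295% of all genes that reached it in wild-hypoxia over wild-normoxia, mutant-normoxia over wild-normoxia and wild-hypoxia over mutant-normoxia hearts. Among these 37 members the 1.5-fold share was 2.70% in each comparison, beside 2.76%, 2.01% and 1.03% of all genes of that depth in the same order of comparisons, so that neither count sets the members apart.

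**Figure D1:**
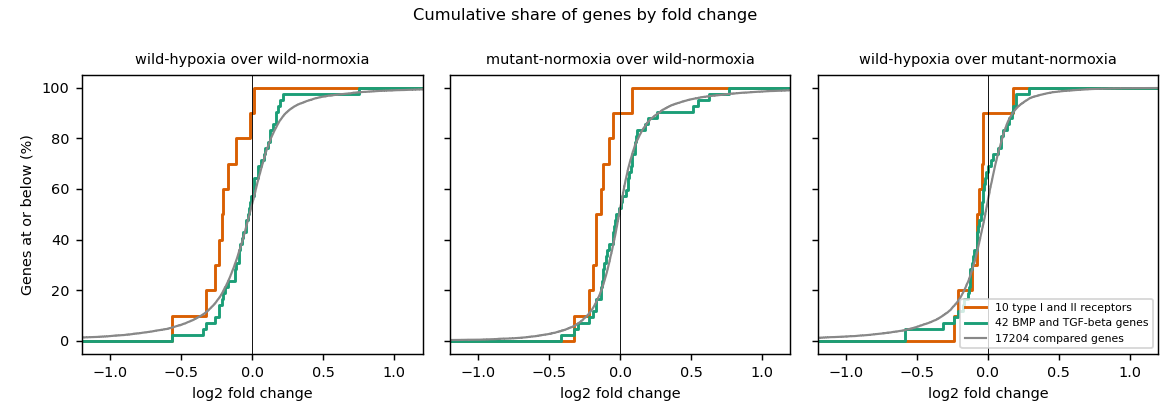
Cumulative share of genes (%) by log2 fold change in 3 panels, one for each comparison, for the 10 type I and type II receptors, all 42 members and all 17204 compared genes. The curve of the members follows that of all compared genes, with medians of -0.03, -0.02 and -0.05, and the curve of the receptors lies to the left of it in both panels over wild-normoxia.

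The median log2 fold change of the members was -0.03 in wild-hypoxia over wild-normoxia hearts, where the median of all compared genes was -0.02. In mutant-normoxia over wild-normoxia hearts it was -0.02 beside -0.01 for all compared genes, and in wild-hypoxia over mutant-normoxia hearts -0.05 beside -0.02. Most members lay within 0.2 of 0 on the log2 scale, 32 (76.2%) in wild-hypoxia over wild-normoxia, 33 (78.6%) in mutant-normoxia over wild-normoxia and 35 (83.3%) in wild-hypoxia over mutant-normoxia hearts, beside 67.2%, 74.4% and 75.1% of all compared genes. At matched depth the shares were close to each other, at 75.7%, 86.5% and 86.5% of the 37 members beside 78.1%, 85.7% and 87.2% of all genes that reached 100 fragments. Within 1 model standard error of 0 were 66.7%, 71.4% and 81.0% of the 42 members, fewer than the 75.3%, 82.6% and 86.0% of all compared genes. More than 2 model standard errors from 0 were Gdf10 and Bmpr1b in wild-hypoxia over wild-normoxia hearts, Gdf10 and Id4 in mutant-normoxia over wild-normoxia hearts, and Id4 in the direct comparison. These are 4.76%, 4.76% and 2.38% of the members beside 5.63%, 4.27% and 2.29% of all compared genes, which is near the background. With the variance not divided by the number of samples, 0 members were that far from 0 in any comparison. Wild-normoxia hearts are the reference of both first comparisons, so their value enters each of them.

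**Figure D2:**
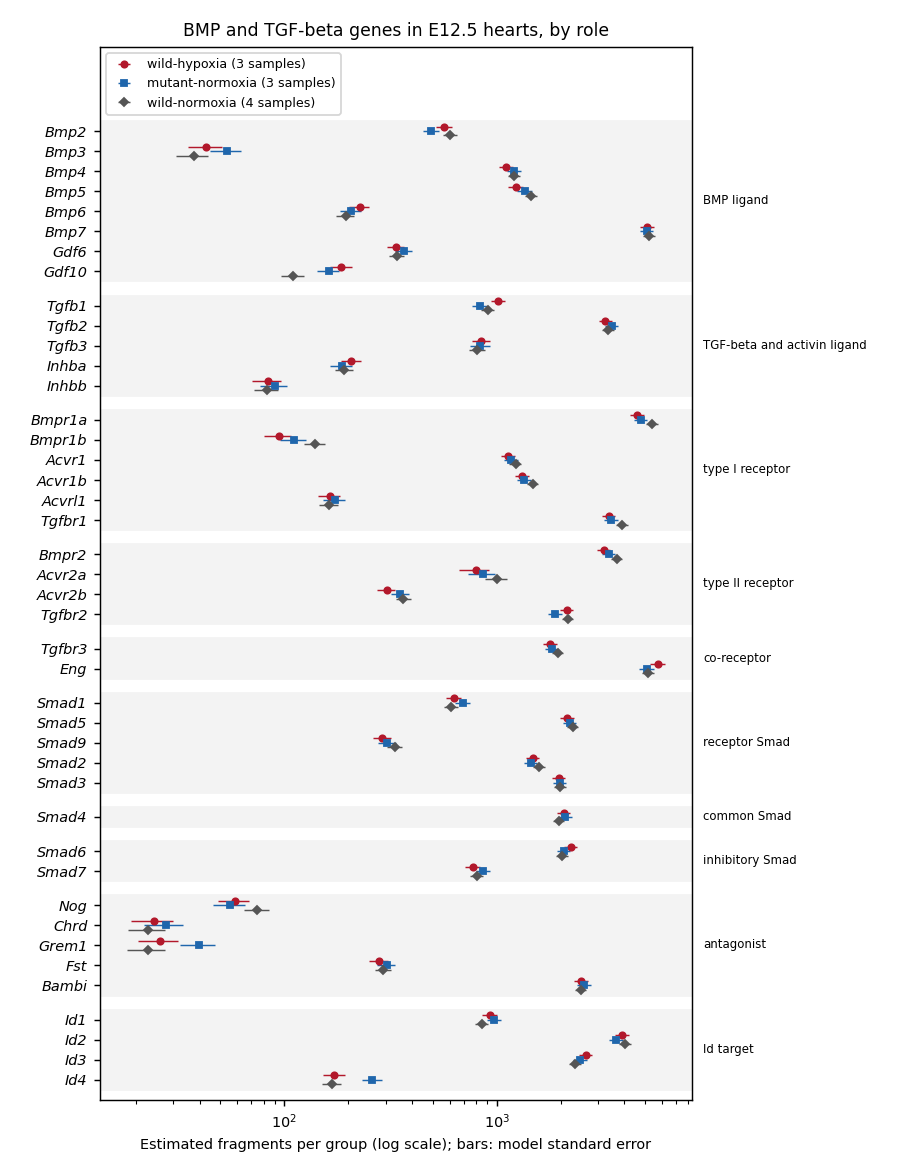
Estimated fragments (log scale) of the 42 members by role in wild-hypoxia (3 samples), mutant-normoxia (3) and wild-normoxia hearts (4), 1 point per group with its model standard error. Levels range from Bmp7, Eng and Bmpr1a, each at 4580 fragments or more, to Chrd and Grem1, each at 39.6 or fewer, and the 3 group values of most genes lie close together.

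Of the 8 BMP-type ligands, 7 were within 1.5-fold in all comparisons and Gdf10 was not. Bmp7 was the most abundant of them per length, at 64.9 length-normalised fragments (per kilobase of merged exon, scaled to the group's total) in wild-hypoxia, 67.9 in mutant-normoxia and 70.0 in wild-normoxia hearts. Bmp4, needed for outflow tract septation, followed at 25.4, 29.1 and 29.2 on that scale in the same order of groups, Bmp5 at 15.6, 18.0 and 19.4, and Bmp2, the ligand of the atrioventricular canal, at 8.12, 7.41 and 9.16. The order Bmp7, Bmp4, Bmp5, Bmp2 was thus the same in each group. Bmp7 had 5106 fragments in wild-hypoxia and 5099 in mutant-normoxia hearts, against 5219 in wild-normoxia hearts. Bmp4 had 1108 fragments in wild-hypoxia and 1209 in mutant-normoxia hearts, against 1205 in wild-normoxia hearts. Bmp5 had 1232 fragments in wild-hypoxia and 1356 in mutant-normoxia hearts, against 1449 in wild-normoxia hearts. Bmp5, a ligand close to Bmp7, was lowest in wild-hypoxia, at -0.23 ± 0.15 (log2 over wild-normoxia ± model standard error), and Bmp7 and Bmp4 were within 0.2 of 0 in each comparison. Bmp2 had 565 fragments in wild-hypoxia and 492 in mutant-normoxia hearts, against 604 in wild-normoxia hearts. Bmp2 was lowest in mutant-normoxia hearts, at -0.29 ± 0.16 over wild-normoxia, which is under 2 model standard errors. Gdf6 had 336 fragments in wild-hypoxia and 366 in mutant-normoxia hearts, against 338 in wild-normoxia hearts. Bmp6 had 226 fragments in wild-hypoxia and 206 in mutant-normoxia hearts, against 194 in wild-normoxia hearts. Gdf6, known for joint formation, and Bmp6, known as a regulator of iron balance, were both within 0.22 of 0 on the log2 scale, and Bmp6 overlaps Txndc5 on the other strand, a gene with 8478 fragments in wild-normoxia hearts, so its count is uncertain as the counting is not stated to use strand. Bmp3 had 42.8 fragments in wild-hypoxia and 53.7 in mutant-normoxia hearts, against 37.4 in wild-normoxia hearts. Bmp3, a ligand that counters other BMPs, was too low for its differences of 0.19 ± 0.35 and 0.51 ± 0.34 over wild-normoxia, in wild-hypoxia and mutant-normoxia hearts in that order, to be told from 0 at this depth.

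Gdf10, also known as Bmp3b and a close relative of Bmp3, was higher in both conditions than in wild-normoxia hearts. It is annotated at chr14:34736773-34749700 of NCBIM37 on the plus strand. It had 186 ± 21.9 fragments (model standard error) in wild-hypoxia and 162 ± 19.6 in mutant-normoxia hearts, against 110.2 ± 14.2 in wild-normoxia hearts. The log2 fold change over wild-normoxia was 0.75 ± 0.25 in wild-hypoxia hearts (1.68-fold, 2.998 model standard errors) and 0.55 ± 0.25 in mutant-normoxia hearts (1.46-fold, 2.17 model standard errors), the second just inside the 1.5-fold limit. Wild-hypoxia and mutant-normoxia hearts differed by 0.20 ± 0.24, under 1 model standard error. Per length it was among the lowest ligands, at 2.54 length-normalised fragments in wild-hypoxia, 2.31 in mutant-normoxia and 1.59 in wild-normoxia hearts. Epidermis markers were higher in the same groups, with a sum of 3048 fragments over 8 markers in wild-hypoxia and 2656 in mutant-normoxia hearts, against 1773 in wild-normoxia hearts. Skeletal muscle markers summed to 2166, 3006 and 1343 in that order of groups, with Tnnt3 at 633, 1378 and 218.5, no marker of either list was at 0 in any group, and 6 of 7 compared epidermis markers and 7 of 7 compared skeletal muscle markers were higher in each condition than in wild-normoxia. The part of these tissues, and of the red cell and liver RNA above, in the Gdf10 difference was not tested.

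The TGF-beta and activin ligands differed little, and all 5 were within 0.2 on the log2 scale of wild-normoxia in both conditions. Tgfb2, the TGF-beta of the cushions and outflow tract, led per length with 34.3 length-normalised fragments in wild-hypoxia, 38.5 in mutant-normoxia and 37.4 in wild-normoxia hearts. Tgfb2 had 3255 fragments in wild-hypoxia and 3486 in mutant-normoxia hearts, against 3361 in wild-normoxia hearts. Tgfb1 had 1018 fragments in wild-hypoxia and 834 in mutant-normoxia hearts, against 907 in wild-normoxia hearts. Tgfb3 had 847 fragments in wild-hypoxia and 837 in mutant-normoxia hearts, against 812 in wild-normoxia hearts. Tgfb1, the TGF-beta of endothelium and blood cells, had the widest range of the 5, and wild-hypoxia exceeded mutant-normoxia hearts by 0.29 ± 0.16 (1.22-fold, 1.80 model standard errors). All 8 endothelial and endocardial markers were also higher in wild-hypoxia than in mutant-normoxia hearts, by a median log2 of 0.15 and with sums of 33764 and 30639 fragments, and none was at 0; their part in the Tgfb1 value was not tested. Inhba had 207 fragments in wild-hypoxia and 186 in mutant-normoxia hearts, against 192 in wild-normoxia hearts. Inhbb had 83.4 fragments in wild-hypoxia and 90.0 in mutant-normoxia hearts, against 82.8 in wild-normoxia hearts. Inhba and Inhbb encode the beta chains of activins, and the 3 group values of each were within 1 model standard error of one another.

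**Figure D3:**
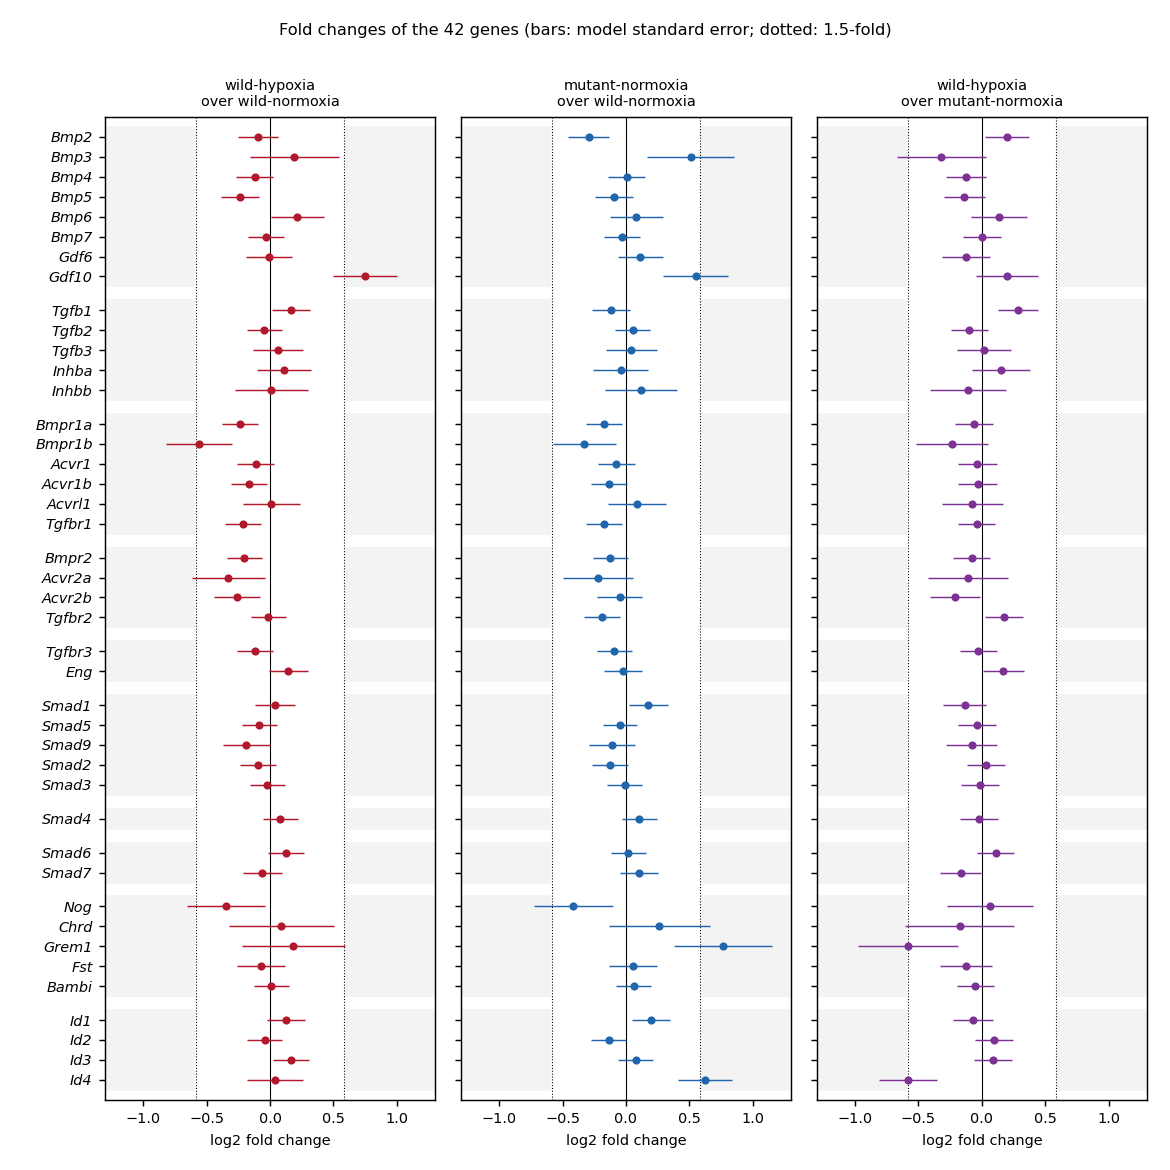
Log2 fold change of each of the 42 members, by role, in wild-hypoxia hearts and in mutant-normoxia hearts over wild-normoxia hearts and in wild-hypoxia over mutant-normoxia hearts, with bars of 1 model standard error. The receptors stand mostly left of 0, and Gdf10 at 0.75, Grem1 at 0.77 and Id4 at 0.62 are the 3 points farthest to the right.

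Most receptors had values a little below 0 in both conditions over wild-normoxia, none past 1.5-fold and nearly all under 2 model standard errors. Of the 10 type I and type II receptors, 9 had a log2 fold change below 0 in wild-hypoxia hearts and 9 in mutant-normoxia hearts, with Acvrl1 as the exception in both, beside 54.1% and 52.1% of all compared genes. Their median log2 fold change was -0.21 in wild-hypoxia and -0.15 in mutant-normoxia hearts, beside -0.02 and -0.01 for all compared genes, and both conditions are set against the same wild-normoxia value. In wild-hypoxia over mutant-normoxia hearts, which leaves wild-normoxia out, 9 of 10 were below 0 with Tgfbr2 as the exception, beside 55.7% of all compared genes, and the median was -0.07 beside -0.02. Within 1 model standard error of 0 lay 3 of the 10 in wild-hypoxia over wild-normoxia, 6 in mutant-normoxia over wild-normoxia and 8 in wild-hypoxia over mutant-normoxia hearts, and no test of the receptors as a group was run. With groups scaled to the same total or by the median of ratios, 10 or 8 receptors were below 0 in wild-hypoxia over wild-normoxia hearts, since Acvrl1 and Tgfbr2 lie close to 0, and 9 in the other comparisons. Over wild-normoxia, only Bmpr1b in wild-hypoxia hearts was more than 2 model standard errors from 0 among these receptors. The receptors are long transcripts, with a median of 5258 bases of merged exon (1753 to 8088) beside 3483 for the 15644 compared genes with a length, and 5 of the 10 were in the longest of 4 equal bins of genes by length. Long genes were lower in wild-hypoxia hearts in general, with a median log2 over wild-normoxia of -0.08 in the longest bin and 0.06 in the shortest. In mutant-normoxia hearts the same bins had medians of -0.02 and 0.02, and in wild-hypoxia over mutant-normoxia hearts -0.07 and 0.03. The part of transcript length in the receptor values was not tested.

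Among the type I receptors, Bmpr1a (ALK3), the main BMP type I receptor of myocardium, was the highest per length, at 36.8 length-normalised fragments in wild-hypoxia, 40.3 in mutant-normoxia and 45.8 in wild-normoxia hearts. Bmpr1a had 4580 fragments in wild-hypoxia and 4783 in mutant-normoxia hearts, against 5388 in wild-normoxia hearts. Its log2 fold change over wild-normoxia was -0.23 ± 0.14 in wild-hypoxia (0.85-fold) and -0.17 ± 0.14 in mutant-normoxia hearts (0.89-fold). Tgfbr1 had 3369 fragments in wild-hypoxia and 3466 in mutant-normoxia hearts, against 3906 in wild-normoxia hearts. Tgfbr1 (ALK5), the type I receptor for TGF-beta, had values close to those of Bmpr1a, at -0.21 ± 0.14 and -0.17 ± 0.14 in wild-hypoxia and mutant-normoxia hearts over wild-normoxia. Acvr1b had 1315 fragments in wild-hypoxia and 1345 in mutant-normoxia hearts, against 1478 in wild-normoxia hearts. Acvr1 had 1136 fragments in wild-hypoxia and 1166 in mutant-normoxia hearts, against 1229 in wild-normoxia hearts. Acvr1b (ALK4), for activins, and Acvr1 (ALK2), a BMP receptor of endocardium, stood at -0.17 and -0.11 (log2) in wild-hypoxia over wild-normoxia hearts, and -0.14 and -0.08 in mutant-normoxia over wild-normoxia hearts. Acvrl1 had 164 fragments in wild-hypoxia and 173 in mutant-normoxia hearts, against 163 in wild-normoxia hearts. Acvrl1 (ALK1), the endothelial receptor for BMP9 and BMP10, was the one type I receptor with no value below 0 over wild-normoxia.

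Bmpr1b (ALK6), a BMP receptor best known from cartilage and limb, was the rarest of the type I receptors per length and had the widest difference of all receptors. It is annotated at chr3:141500100-141832389 of NCBIM37 on the minus strand. It had 94.2 ± 13.7 fragments in wild-hypoxia and 111.1 ± 15.2 in mutant-normoxia hearts, against 139.6 ± 15.2 in wild-normoxia hearts. Wild-hypoxia hearts had the lowest level and wild-normoxia hearts the highest. The log2 fold change over wild-normoxia was -0.56 ± 0.26 in wild-hypoxia hearts (a distance of -2.17 model standard errors, just inside the 1.5-fold limit) and -0.33 ± 0.25 in mutant-normoxia hearts, and wild-hypoxia over mutant-normoxia gave -0.24 ± 0.29. Liver markers were lower in the same groups, all 8 in both conditions, and their part in the Bmpr1b values was not tested.

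The 4 type II receptors were all below 0 over wild-normoxia in both conditions. Bmpr2 had 3186 fragments in wild-hypoxia and 3370 in mutant-normoxia hearts, against 3673 in wild-normoxia hearts. Bmpr2, the BMP type II receptor, was the most abundant type I or type II receptor per length (3507 bases of exon in the annotation used). This rank depends on that length, since Bmpr1a (5388) and Tgfbr1 (3906) had more fragments in wild-normoxia hearts. The log2 fold change of Bmpr2 over wild-normoxia was -0.20 ± 0.14 in wild-hypoxia and -0.12 ± 0.14 in mutant-normoxia hearts. Acvr2b had 303 fragments in wild-hypoxia and 351 in mutant-normoxia hearts, against 364 in wild-normoxia hearts. Acvr2b, an activin receptor known for left-right patterning of the heart, was lower in wild-hypoxia hearts, at -0.26 ± 0.18 over wild-normoxia and -0.21 ± 0.20 over mutant-normoxia. Acvr2a had 796 fragments in wild-hypoxia and 859 in mutant-normoxia hearts, against 1000 in wild-normoxia hearts. Acvr2a, the other activin type II receptor, had wide errors, at -0.33 ± 0.29 and -0.22 ± 0.27 over wild-normoxia in wild-hypoxia hearts and in mutant-normoxia hearts, and it overlaps Orc4 on the other strand (1079 fragments in wild-normoxia hearts). Tgfbr2 had 2138 fragments in wild-hypoxia and 1892 in mutant-normoxia hearts, against 2159 in wild-normoxia hearts. Tgfbr2, the TGF-beta type II receptor, differed from the other 3 in that wild-hypoxia hearts lay within 1 model standard error of wild-normoxia hearts (-0.01 ± 0.14) and mutant-normoxia hearts were the low group (-0.19 ± 0.14).

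Of the co-receptors, betaglycan (Tgfbr3), which presents TGF-beta ligands to Tgfbr2, and endoglin (Eng), the endothelial partner of Acvrl1, were within 0.2 on the log2 scale in all comparisons. Tgfbr3 had 1786 fragments in wild-hypoxia and 1819 in mutant-normoxia hearts, against 1939 in wild-normoxia hearts. Eng had 5732 fragments in wild-hypoxia and 5092 in mutant-normoxia hearts, against 5184 in wild-normoxia hearts. Eng was highest in wild-hypoxia hearts, by 0.14 ± 0.15 over wild-normoxia and 0.17 ± 0.16 over mutant-normoxia, alongside the endothelial markers whose sums are given with Tgfb1. Eng overlaps Ak1 on the same strand (3470 fragments in wild-normoxia hearts) and Fpgs on the other (564), so reads could be shared between them.

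All 8 Smads were within 0.2 on the log2 scale in each of the 3 comparisons (7 of 8 in wild-hypoxia over wild-normoxia hearts when scaled to the same total), and none was over 1.5 model standard errors from 0. On the BMP branch Smad5 was the most abundant per length, at 14.8 length-normalised fragments in wild-hypoxia, 15.9 in mutant-normoxia and 16.6 in wild-normoxia hearts. Smad5 had 2147 fragments in wild-hypoxia and 2206 in mutant-normoxia hearts, against 2280 in wild-normoxia hearts. Smad1 had 628 fragments in wild-hypoxia and 691 in mutant-normoxia hearts, against 611 in wild-normoxia hearts. Smad9 had 290 fragments in wild-hypoxia and 306 in mutant-normoxia hearts, against 331 in wild-normoxia hearts. Smad1 was highest in mutant-normoxia hearts, by 0.18 ± 0.16 over wild-normoxia, and Smad9 was lowest in wild-hypoxia hearts, by -0.19 ± 0.19. Smad2 had 1482 fragments in wild-hypoxia and 1448 in mutant-normoxia hearts, against 1580 in wild-normoxia hearts. Smad3 had 1962 fragments in wild-hypoxia and 1980 in mutant-normoxia hearts, against 1994 in wild-normoxia hearts. Smad4 had 2070 fragments in wild-hypoxia and 2104 in mutant-normoxia hearts, against 1957 in wild-normoxia hearts. Over wild-normoxia, the log2 value of Smad3 was -0.02 ± 0.14 in wild-hypoxia hearts and -0.01 ± 0.14 in mutant-normoxia hearts, and that of Smad4, the Smad shared by both branches, 0.08 ± 0.14 and 0.10 ± 0.14. Smad6 had 2228 fragments in wild-hypoxia and 2065 in mutant-normoxia hearts, against 2042 in wild-normoxia hearts. Smad7 had 772 fragments in wild-hypoxia and 866 in mutant-normoxia hearts, against 806 in wild-normoxia hearts. Smad6, an inhibitor of BMP signalling that is strong in cardiac valves and outflow tract, was highest in wild-hypoxia hearts, and Smad7, an inhibitor of both branches, in mutant-normoxia hearts, both by under 1 model standard error over wild-normoxia.

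Antagonists of the pathway were mostly rare in these hearts, with Noggin (Nog), Chordin (Chrd) and Gremlin 1 (Grem1) all under 100 fragments in every group. Grem1, which binds BMP ligands and is known from limb and lung, was higher in mutant-normoxia hearts. It is annotated at chr2:113586321-113598803 of NCBIM37 on the minus strand and had 26.1 ± 5.51 fragments in wild-hypoxia and 39.6 ± 7.40 in mutant-normoxia hearts, against 22.8 ± 4.66 in wild-normoxia hearts. The log2 fold change over wild-normoxia was 0.77 ± 0.39 in mutant-normoxia hearts (1.70-fold, 1.99 model standard errors) and 0.18 ± 0.41 in wild-hypoxia hearts, and wild-hypoxia over mutant-normoxia gave -0.58 ± 0.39, just inside the 1.5-fold limit. At this depth the difference rests on few fragments and has a wide error. Nog had 58.4 fragments in wild-hypoxia and 55.7 in mutant-normoxia hearts, against 74.5 in wild-normoxia hearts. Chrd had 24.4 fragments in wild-hypoxia and 27.6 in mutant-normoxia hearts, against 22.9 in wild-normoxia hearts. Nog had its highest value in wild-normoxia hearts, and stood at -0.35 ± 0.31 (log2) in wild-hypoxia hearts and -0.41 ± 0.31 in mutant-normoxia hearts, and Chrd differed by less than its error. Fst had 278 fragments in wild-hypoxia and 304 in mutant-normoxia hearts, against 292 in wild-normoxia hearts. Bambi had 2502 fragments in wild-hypoxia and 2590 in mutant-normoxia hearts, against 2485 in wild-normoxia hearts. Follistatin (Fst), which traps activins, and Bambi, a receptor decoy that lacks the kinase, were within 0.2 on the log2 scale in every comparison. Bambi had the most fragments of the 5 listed antagonists.

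The Id genes, immediate targets of BMP-type Smads that encode helix-loop-helix proteins without a DNA-binding region, were mostly level across the groups. Id2 was the member with the highest level per length, at 157 length-normalised fragments in wild-hypoxia, 154 in mutant-normoxia and 171 in wild-normoxia hearts. Id2 had 3912 fragments in wild-hypoxia and 3666 in mutant-normoxia hearts, against 4031 in wild-normoxia hearts. Id1 had 929 fragments in wild-hypoxia and 976 in mutant-normoxia hearts, against 851 in wild-normoxia hearts. Id3 had 2636 fragments in wild-hypoxia and 2477 in mutant-normoxia hearts, against 2350 in wild-normoxia hearts. Over wild-normoxia, Id1 stood at 0.13 ± 0.15 (log2) in wild-hypoxia hearts and 0.20 ± 0.15 in mutant-normoxia hearts, Id3 0.17 ± 0.14 and 0.08 ± 0.14, and Id2 -0.04 ± 0.14 and -0.14 ± 0.14. None of the 3 was over 1.5 model standard errors from 0. Id4, best known from the developing brain, stood apart from them in mutant-normoxia hearts.

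Id4 is annotated at chr13:48356796-48359405 of NCBIM37 on the plus strand, with 3 exons. It had 172 ± 20.2 fragments in wild-hypoxia and 259 ± 28.0 in mutant-normoxia hearts, against 168 ± 17.3 in wild-normoxia hearts. Mutant-normoxia hearts were the high group, and wild-hypoxia hearts lay within 1 model standard error of wild-normoxia hearts. The log2 fold change over wild-normoxia was 0.62 ± 0.21 in mutant-normoxia hearts (1.54-fold, 2.92 model standard errors) and 0.04 ± 0.22 in wild-hypoxia hearts. Wild-hypoxia over mutant-normoxia gave -0.59 ± 0.23 (a distance of -2.56 model standard errors). This comparison does not use the wild-normoxia value, but it shares the mutant-normoxia value with the one over wild-normoxia. Its value was at the edge of the 1.5-fold limit and inside it under 3 of the alternative settings. Foregut and lung bud markers were high in the same group, with a sum over 8 markers of 324 fragments in wild-hypoxia and 798 in mutant-normoxia hearts, against 279 in wild-normoxia hearts. All 7 compared markers of that list were higher in mutant-normoxia hearts over wild-normoxia, and Nkx2-1, a defining marker of lung bud and thyroid, had 9.32 fragments in wild-hypoxia and 81.6 in mutant-normoxia hearts, against 0.775 in wild-normoxia hearts. Neuron markers summed to 754, 1181 and 997 fragments in wild-hypoxia, mutant-normoxia and wild-normoxia hearts, with none at 0. Tubb3 made up 434, 660 and 490 of these, with a model standard error above its count in each group. In mutant-normoxia over wild-normoxia hearts 6 of 7 compared neuron markers were above 0, each within 1 model standard error, and Nhlh2 was below, at -1.07 ± 0.37. The part of either tissue in the Id4 and Grem1 values was not tested, and Id4 also overlaps a gene on the other strand (A330033J07Rik).

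**Figure D4:**
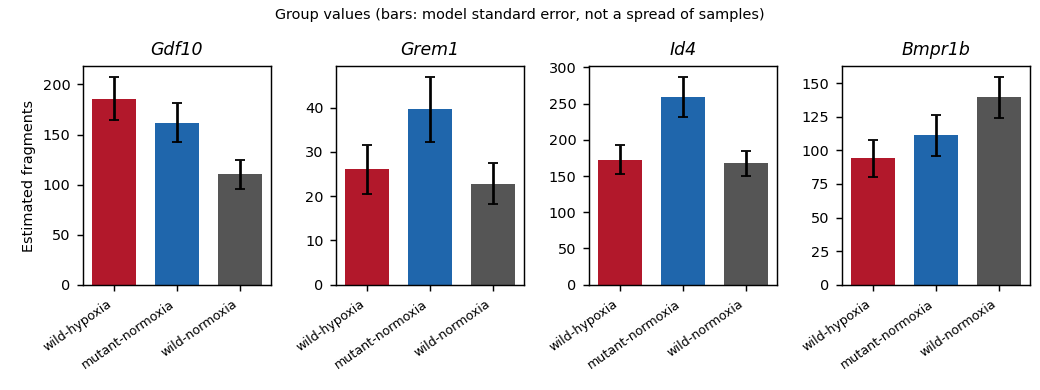
Estimated fragments of Gdf10, Bmpr1b, Grem1 and Id4 in wild-hypoxia, mutant-normoxia and wild-normoxia hearts, drawn as 1 bar per group from 0 with an error bar of 1 model standard error. Gdf10 is lowest and Bmpr1b highest in wild-normoxia hearts, whereas Grem1 and Id4 are highest in mutant-normoxia hearts, at 39.6 and 259 fragments.

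Other genes of the pathways came from a list of 101 symbols, of which 100 were in the table and 87 could be compared. In wild-hypoxia over wild-normoxia hearts 2 were over 1.5-fold higher and 1 lower, in mutant-normoxia over wild-normoxia hearts 2 higher and 3 lower, and in wild-hypoxia over mutant-normoxia hearts 1 higher and 0 lower. These are 3.45%, 5.75% and 1.15% of the 87, beside the 7.86%, 5.69% and 5.39% of all compared genes given above. Their median log2 fold changes in the same order of comparisons were 0.04, 0.03 and -0.03, beside -0.02, -0.01 and -0.02 for all compared genes. The 24 intracellular components, among them Smurf ligases, Ski and Skil, were all within 1.5-fold in each comparison, as were the 20 target genes. Of the 20 target genes 6 were below 0 in wild-hypoxia and 3 in mutant-normoxia hearts over wild-normoxia, beside 54.1% and 52.1% of all compared genes, with medians of 0.07 and 0.12. In wild-hypoxia over mutant-normoxia hearts 15 of 20 were below 0, beside 55.7%, with a median of -0.09. In each comparison 1 target gene was over 2 model standard errors from 0. The medians of the epicardial markers had the same signs as those of the target genes, at 0.16, 0.24 and -0.10 in the same order of comparisons. This was not particular to the epicardium. Medians of the cardiomyocyte, cushion mesenchyme, foregut and lung bud, and neural crest and glia markers had these signs too. Those of the endothelial, red cell, liver, epidermis, neuron, macrophage and skeletal muscle markers did not. Twist1 is in both the target gene and the cushion mesenchyme list. The part of any of these tissues in the target gene values was not tested.

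**Figure D5:**
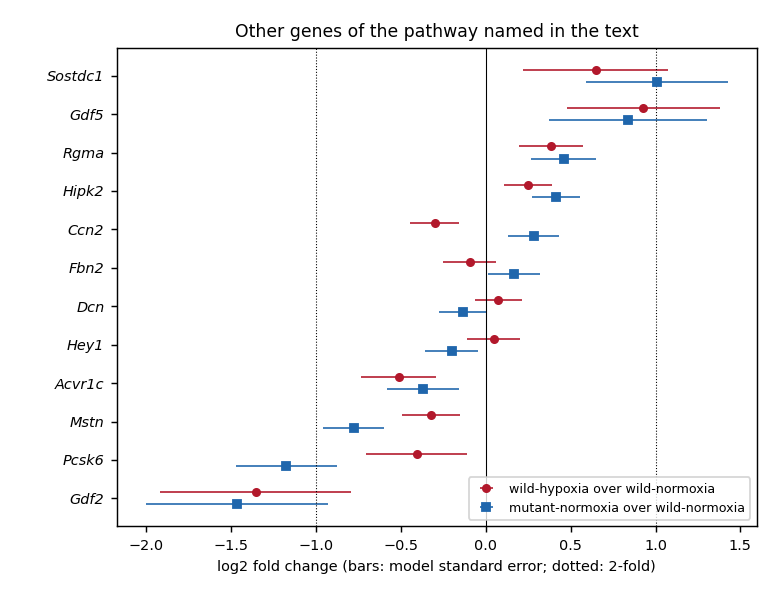
Log2 fold change over wild-normoxia of the other pathway genes named in the text, in wild-hypoxia and mutant-normoxia hearts, with bars of 1 model standard error. Gdf2 and Pcsk6 lie farthest below 0 and Sostdc1 farthest above it in mutant-normoxia hearts, at -1.47, -1.18 and 1.01.

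Among the ligands outside the 42, myostatin (Mstn), which restrains muscle growth, was lower in mutant-normoxia hearts. Mstn had 404 fragments in wild-hypoxia and 294 in mutant-normoxia hearts, against 504 in wild-normoxia hearts. Its log2 fold change over wild-normoxia was -0.78 ± 0.18 in mutant-normoxia hearts (a distance of -4.31 model standard errors) and -0.32 ± 0.17 in wild-hypoxia hearts, and wild-hypoxia over mutant-normoxia gave 0.46 ± 0.20. Pcsk6 (PACE4), a convertase that cleaves proforms of TGF-beta family ligands, was lowest in the same group. Pcsk6 had 399 fragments in wild-hypoxia and 234 in mutant-normoxia hearts, against 530 in wild-normoxia hearts. Its log2 fold change over wild-normoxia was -0.41 ± 0.30 in wild-hypoxia and -1.18 ± 0.30 in mutant-normoxia hearts, and wild-hypoxia over mutant-normoxia gave 0.77 ± 0.35. Both genes were thus lower in mutant-normoxia than in wild-hypoxia hearts, with wild-normoxia hearts the highest. Bmp10, the ligand of trabecular myocardium, had 3378 fragments in wild-hypoxia and 3821 in mutant-normoxia hearts, against 3948 in wild-normoxia hearts, or -0.22 ± 0.14 and -0.05 ± 0.14 as log2 values over wild-normoxia, and was named for its known role in the heart after its values were seen.

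Gdf2 (BMP9), a circulating ligand made by liver, was over 2-fold lower in both conditions but very rare. Gdf2 had 6.17 fragments in wild-hypoxia and 5.64 in mutant-normoxia hearts, against 17.3 in wild-normoxia hearts. Over wild-normoxia its log2 values were -1.36 ± 0.56 in wild-hypoxia and -1.47 ± 0.54 in mutant-normoxia hearts. With a pseudocount of 10 both values moved inside the 2-fold limit, the first to -0.76. All 8 liver markers were lower in the same groups, with none at 0 and the sums given above, and their part in the Gdf2 value was not tested. Gdf5, a joint ligand, and Sostdc1, a secreted BMP and Wnt antagonist, were also rare. Gdf5 had 21.2 fragments in wild-hypoxia and 19.8 in mutant-normoxia hearts, against 10.6 in wild-normoxia hearts. Sostdc1 had 36.2 fragments in wild-hypoxia and 46.8 in mutant-normoxia hearts, against 22.8 in wild-normoxia hearts. Gdf5 was higher over wild-normoxia by 0.93 ± 0.45 in wild-hypoxia and 0.84 ± 0.46 in mutant-normoxia hearts, and Sostdc1 by 0.65 ± 0.43 and 1.01 ± 0.42. Acvr1c (ALK7), a receptor for Nodal and activin B, was lower in both conditions. Acvr1c had 156 fragments in wild-hypoxia and 172 in mutant-normoxia hearts, against 223 in wild-normoxia hearts. Rgma, a BMP co-receptor, and Hipk2, a kinase that acts with Smads, were higher in both. Rgma had 346 fragments in wild-hypoxia and 365 in mutant-normoxia hearts, against 265 in wild-normoxia hearts. Hipk2 had 1937 fragments in wild-hypoxia and 2167 in mutant-normoxia hearts, against 1629 in wild-normoxia hearts. Over wild-normoxia, Acvr1c had -0.51 ± 0.22 in wild-hypoxia and -0.37 ± 0.21 in mutant-normoxia hearts, Rgma 0.38 ± 0.19 and 0.46 ± 0.19, and Hipk2 0.25 ± 0.14 and 0.41 ± 0.14 (2.92 model standard errors), all as log2 fold changes.

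Ccn2 (Ctgf), a matricellular target of TGF-beta, had the largest distance of the pathway genes between wild-hypoxia and mutant-normoxia hearts. Ccn2 had 1760 fragments in wild-hypoxia and 2638 in mutant-normoxia hearts, against 2170 in wild-normoxia hearts. Wild-hypoxia hearts were lowest and mutant-normoxia hearts highest, with log2 fold changes over wild-normoxia of -0.30 ± 0.15 and 0.28 ± 0.15, and a direct difference of -0.58 ± 0.16 (a distance of -3.63 model standard errors), just inside the 1.5-fold limit. Fbn2, a microfibril protein that binds ligand complexes, had the same order of groups, and Dcn, a proteoglycan that binds TGF-beta, and Hey1, a transcriptional repressor of endocardium and atria, were lowest in mutant-normoxia hearts. Fbn2 had 7950 fragments in wild-hypoxia and 9522 in mutant-normoxia hearts, against 8486 in wild-normoxia hearts. Dcn had 1956 fragments in wild-hypoxia and 1691 in mutant-normoxia hearts, against 1858 in wild-normoxia hearts. Hey1 had 695 fragments in wild-hypoxia and 585 in mutant-normoxia hearts, against 673 in wild-normoxia hearts. Wild-hypoxia over mutant-normoxia gave log2 fold changes of -0.26 ± 0.17 for Fbn2, 0.21 ± 0.15 for Dcn and 0.25 ± 0.17 for Hey1, all under 2 model standard errors.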

How the data were processed

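RNA-seq of whole E12.5 hearts was analysed from 1 table of 49662 genes. Per the study's methods, the authors mapped single-end reads of 40 bases with TopHat, over a Bowtie2 index, to the mouse genome named mm9, after a FastQC check, and quantified genes with Cufflinks. For tool versions, annotation release and strand setting: not given in the sources used here. Used were the estimated counts that the authors deposited, 1 per gene and group on a common scale, each with a deposited model variance (other unit: squared fragments) and a status. No column was left unmatched (0). Left out were 34 genes with a failed or saturated estimate (status FAIL or HIDATA), and 17204 with at least 10 fragments in some group were compared.

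Log2 ratios of group values were computed with a pseudocount of 1. Members over 2-fold and 1.5-fold were counted beside all compared genes. The model standard error is the root of the deposited variance divided by the number of samples, and values under 0.05 were not used, which affected 3 genes and was decided on seeing the data. The test on single samples planned for a table with sample values could not be run. The deposited model standard deviation had a median of 13.7% of the count over the members. Lengths, coordinates and overlaps came from the GENCODE annotation of NCBIM37 by Ensembl identifier. The loci in the study's supplement, such as those of Afp and Alas2, do not match this annotation. The authors therefore counted over other gene coordinates. Exon lengths and overlaps in their gene models may differ too, so levels per length, the bins by length and the overlaps are approximate. Promoters came from RefSeq. Samples were grouped by the submitters' labels. Only the log2 ratios with their model standard errors and the median-of-ratios scaling were tested on simulated data. The simulated variance was built to be divided by the number of samples, so it could not check that division. Python 3.11.15, pandas 2.3.3, numpy 2.4.6 and matplotlib 3.10.9 were used.

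The members and all gene lists were chosen with earlier results of these data known. Described in full were members over 1.5-fold and the 6 per comparison farthest from 0 in model standard errors. Of the other pathway genes, those over 2-fold with at least 50 fragments and the 6 per comparison farthest from 0 were named. Alternatives were other pseudocounts, minimums, scalings and an undivided variance. The split by length and the receptor counts under other scalings were chosen after seeing the data.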

Additional observations from a re-analysis of the deposited data

How the results depend on the processing

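No member was over 2-fold under any of the pseudocounts, minimums and scalings tried. The count of members over 1.5-fold in wild-hypoxia over mutant-normoxia hearts (1, Id4) became 0 with a pseudocount of 10, 2 with a pseudocount of 0.1, and 0 when groups were scaled to the same total or by the median of ratios. In mutant-normoxia over wild-normoxia hearts the count (2) became 1 with a minimum of 50 fragments, which leaves out Grem1. Of 300 alternative log2 fold changes of named genes, 298 moved by less than 1 model standard error, 2 moved further with a pseudocount of 10, and 0 values past a fold limit changed sign. With the deposited variance not divided by the number of samples, 0 members were over 2 model standard errors in each comparison, and the largest distances were 1.59, 1.56 and 1.48 in place of 2.998, 2.92 and 2.56, so the errors depend on what the deposited variance stands for, which was not stated. No paired analysis was possible because the table holds 1 value per group, and for the same reason no sample could be left out in turn.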
